A study of Mus musculus with 16 samples.

Results

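The rod phototransduction cascade was followed through 9 genes picked by name: Gnat1, Gnb1, Gngt1, Pde6a, Pde6b, Pde6g, Cnga1, Cngb1 and Sag. They are 9 of the 37255 gene intervals in the deposited table, and all 9 passed the filter on low counts that left 29902 intervals for testing. They were proposed with earlier results of these libraries known, among them higher values at disease onset, so for the members and the related gene lists every comparison that uses the onset libraries is given as a description with no test. The measurement was ATAC-seq, in which a transposase cuts and tags accessible DNA, made on retinal ganglion cells that had been sorted from the eyes of female mice. The 16 libraries fell into 5 from naive mice, labelled Control, and 4, 3 and 4 from mice with experimental autoimmune encephalomyelitis (EAE) at the presymptomatic, onset and peak stages. EAE is an induced autoimmune attack on myelin that can reach the optic nerve. The labels place its induction at an age of 7 to 8 weeks. Not given in the sources used here were the mouse strain, the inducing antigen, the days of each stage and the sorting markers. Whether each library had its own animals is also not stated, so the p-values reflect only how these libraries vary, which may in part be technical.

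Rods are the light-sensing cells of dim vision, and they lie in the outer retina, apart from the ganglion cells of the inner retina. In the dark their cyclic-nucleotide-gated channels are held open by cyclic GMP. Light activates the visual pigment, which activates the G protein transducin. Transducin relieves the inhibition of a phosphodiesterase that breaks down cyclic GMP, the channels close, and arrestin then binds the pigment to end its activity. Gnat1, Gnb1 and Gngt1 encode the alpha, beta and gamma subunits of rod transducin. Pde6a and Pde6b encode the catalytic subunits of the rod phosphodiesterase and Pde6g its inhibitory subunit. Cnga1 and Cngb1 encode the subunits of the rod channel, and Sag encodes the rod arrestin. Gnb1 is also used by many other neurons.

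Promoter windows from RefSeq on GRCm38.p6, from 250 bases before to 50 after a gene's start, were matched by symbol for 6 of the 9 members. They are shown because 2 of them, those of Gngt1 and Sag, held their start inside the interval that was counted, if the deposited positions are on the same build. The windows of Cngb1 and Gnb1 are set beside them as the window with the most TAATCC and as one with neither motif. Capitals mark TAATCC, the core recognised by CRX and OTX2 homeodomain factors, or TGCTGA, part of the site of MAF-family factors such as NRL. Both strands were read, so the same sites appear as GGATTA and TCAGCA where they lie on the other strand, and the motifs do not overlap one another here. Each is printed along the strand of its gene. The windows are chr6:3993758-3994057 on the plus strand for Gngt1, chr1:87803430-87803729 on the plus strand for Sag, chr8:95306536-95306835 on the minus strand for Cngb1, and chr4:155491111-155491410 on the plus strand for Gnb1.
Gngt1: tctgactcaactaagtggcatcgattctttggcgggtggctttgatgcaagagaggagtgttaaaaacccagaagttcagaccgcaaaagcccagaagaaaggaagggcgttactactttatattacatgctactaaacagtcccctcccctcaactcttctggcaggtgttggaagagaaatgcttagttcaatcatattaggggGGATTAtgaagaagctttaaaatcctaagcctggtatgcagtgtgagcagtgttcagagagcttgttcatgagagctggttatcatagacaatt
Sag: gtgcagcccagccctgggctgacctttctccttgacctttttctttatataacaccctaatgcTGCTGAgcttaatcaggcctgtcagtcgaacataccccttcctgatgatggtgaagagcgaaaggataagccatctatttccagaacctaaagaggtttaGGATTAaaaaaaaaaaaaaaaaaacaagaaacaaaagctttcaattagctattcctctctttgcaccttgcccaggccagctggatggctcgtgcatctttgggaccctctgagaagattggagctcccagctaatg
Cngb1: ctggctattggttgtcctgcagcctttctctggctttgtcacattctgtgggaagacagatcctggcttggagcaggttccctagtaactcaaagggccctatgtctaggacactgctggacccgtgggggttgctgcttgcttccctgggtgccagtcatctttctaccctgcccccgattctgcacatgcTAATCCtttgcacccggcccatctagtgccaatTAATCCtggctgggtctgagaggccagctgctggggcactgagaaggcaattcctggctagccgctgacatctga
Gnb1: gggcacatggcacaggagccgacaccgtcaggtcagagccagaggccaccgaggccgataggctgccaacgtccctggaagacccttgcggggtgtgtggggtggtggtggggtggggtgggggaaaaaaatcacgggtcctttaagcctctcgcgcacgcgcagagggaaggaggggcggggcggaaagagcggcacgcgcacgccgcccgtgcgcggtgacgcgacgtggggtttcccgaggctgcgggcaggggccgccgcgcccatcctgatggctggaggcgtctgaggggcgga

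TAATCC was present in the windows of 4 of the 6 members, those of Gngt1, Cnga1, Cngb1 and Sag, and in 7.06% of all 32851 RefSeq windows of the same length. Counted from the start of the gene, it began at -44 in Gngt1, at -87 in Sag, at -228 in Cnga1, and at both -58 and -25 in Cngb1. TGCTGA was present in 2 of the 6, at -8 in Pde6b and at -187 in Sag, against 19.5% of all windows. The Gnb1 window held neither and was 70.3% G and C, against 41.3% in the Cnga1 window and a median of 52.7% over all windows. These matches describe the letters in the windows only, and whether a factor bound there was not measured.

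The value of a gene is the number of reads over its body less 1000 bases at each end, so for most members it reports open chromatin within the gene and not at its start. On the positions in the deposited table, the members' spans were chr9:107674474-107679592 for Gnat1, chr4:155491361-155559269 for Gnb1, chr6:3989082-3997436 for Gngt1, chr5:108388373-108431743 for Pde6b, chr11:120447607-120453500 for Pde6g, chr5:72603696-72642752 for Cnga1, chr8:95239043-95306585 for Cngb1 and chr1:87800167-87845158 for Sag. Gnat1, Pde6g, Cnga1 and Cngb1 lie on the minus strand and the others on the plus strand. The counted length ran from 3119 bases for Gnat1 to 67252 bases for Pde6a. Pde6b overlaps Gm34254 and Gm34204 on the other strand, over 8.16% and 11.4% of its span, and Sag overlaps Gm38609 over 0.671%. ATAC-seq reads carry no strand, so reads in those stretches cannot be assigned to 1 gene.

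Libraries held 3.71 to 30.9 M reads in gene intervals (M, 10 to the power 6), of which 8.36% to 64.7% lay on the mitochondrial genome. Onset replicate 3 had the lowest mitochondrial share, 8.36%, against 37.2% and 51.3% in the other onset libraries. All 18 ganglion cell markers were tested, none was at 0 in all libraries, and Irx3, Nefl, Pou4f2, Pou4f3 and Sncg were at 0 in at least 1 library. The median ganglion cell marker stood at percentile 82.9 of read density per length among nuclear intervals. The median rod marker outside the cascade stood at percentile 78.5. The marker lists ran from 22.7 for microglia and macrophages to 91.7 for amacrine and horizontal cells, so rod genes were not set apart in this. These percentiles are of means over all libraries. Intervals of rod genes thus carried reads in these sorted ganglion cell libraries, though Rom1 was at 0 in at least 1. In such libraries more rod nuclei in a sort and more accessible chromatin per nucleus cannot be told apart.

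Read density, the reads per kilobase of counted interval and per 10 to the power 6 nuclear reads, put the members over a wide range. Gnat1 was the most accessible per length, with a density of 5.38 ± 3.44 (SD, n = 16 libraries), which is percentile 98.3 of 35258 intervals of at least 500 bases. Pde6g followed with a density of 2.07 ± 1.67, at percentile 94.4, and Gngt1 with 1.79 ± 1.34, at percentile 92.9. The densities of these 2 differ by less than their spread over libraries. Sag had a density of 1.25 ± 0.748 and Cngb1 of 1.17 ± 0.339, at percentiles 86.3 and 84.4. Below them, the densities of Gnb1 (0.782 ± 0.432), Cnga1 (0.718 ± 0.242) and Pde6b (0.690 ± 0.347) lay within each other's spread and near the 0.626 median of all intervals. Pde6a was the least accessible per length, with a density of 0.515 ± 0.224, at percentile 36.2. Among intervals of similar length, from 0.8 to 1.25 times that of the member, the percentiles were 98.1 for Gnat1 and 27.0 for Pde6a, so the members at the head and foot of the order were also high and low for their lengths.

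**Figure D1:**
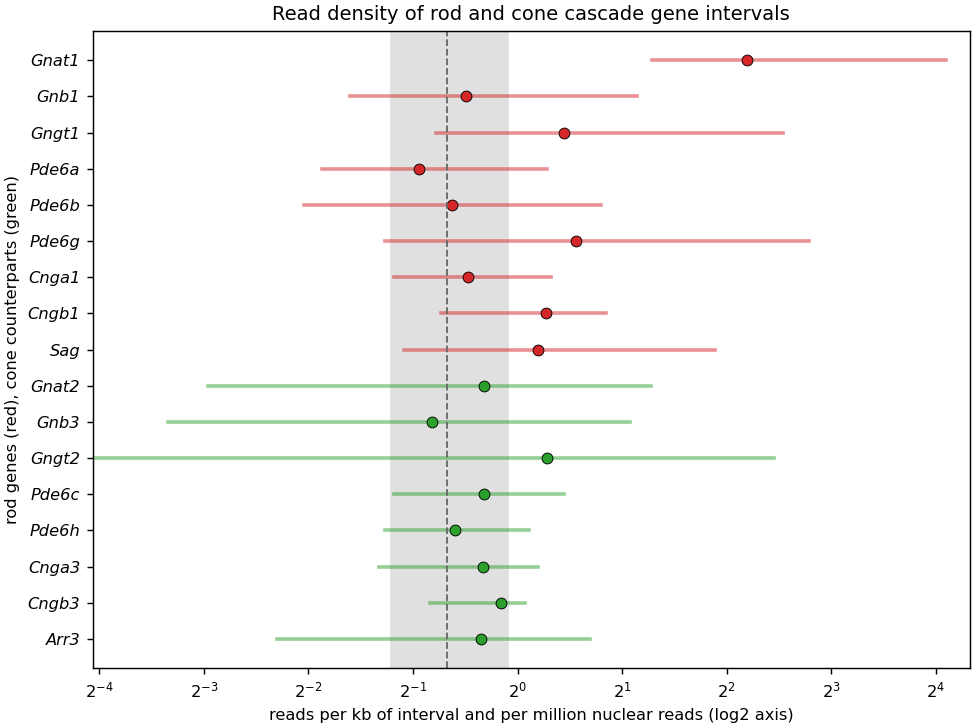
Read density of each rod cascade gene and of each cone counterpart, in reads per kilobase per M nuclear reads on a log axis. Each gene has a point at its median and a line from its lowest to its highest library (16 libraries). Gnat1 lies highest, with a median of 4.58, and Pde6a has the lowest median of the rod genes, 0.519.

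The stage values are counts per M reads (CPM), scaled between libraries by TMM (trimmed mean of M-values), and they are given first for the transducin genes. Gnat1 had 8.76, 7.23, 4.60, 7.80 and 7.88 CPM in the naive libraries, 4.25, 5.00, 5.51 and 6.29 in the presymptomatic, 11.3, 10.4 and 24.2 in the onset and 11.2, 7.41, 6.10 and 8.71 in the peak libraries. All 3 onset libraries lay above all naive libraries, and also above all presymptomatic libraries, while the peak libraries overlapped the naive range. Gnat1 averaged 15.3 ± 7.73 CPM at onset and 7.26 ± 1.58 CPM in naive libraries (SD, n = 3 and 5), a log2 fold change of 1.09 ± 0.32 (SE, edgeR). The highest value, in onset replicate 3, was 2.14 times the next highest of any library, and without that library the onset log2 fold change of Gnat1 was 0.58 ± 0.34.

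Gnb1 had 23.1, 26.9, 13.1, 29.4 and 25.6 CPM in the naive libraries, 16.8, 22.04, 13.2 and 27.0 in the presymptomatic, 37.0, 36.5 and 66.2 in the onset and 15.3, 20.1, 23.0 and 27.1 in the peak libraries. The pattern was that of Gnat1, with each onset library above each naive and each presymptomatic library. Gnb1 averaged 46.6 ± 16.98 CPM at onset and 23.6 ± 6.31 CPM in naive libraries, a log2 fold change of 0.98 ± 0.28, or 0.64 ± 0.30 without onset replicate 3. At peak, where it averaged 21.4 ± 4.94 CPM, every library lay below every onset library.

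Gngt1 had 2.78, 1.92, 9.19, 11.2 and 2.68 CPM in the naive libraries, 3.46, 5.00, 4.76 and 19.1 in the presymptomatic, 4.65, 3.59 and 9.12 in the onset and 2.13, 4.56, 4.66 and 6.22 in the peak libraries. Its values ranged 9.94-fold between the lowest and the highest library, and the highest was a presymptomatic one, replicate 4. Gngt1 averaged 5.79 ± 2.94 CPM at onset and 5.55 ± 4.30 CPM in naive libraries, a log2 fold change of 0.08 ± 0.54. Its onset values all lay inside the naive range, and without onset replicate 3 the log2 fold change was -0.44 ± 0.65. The onset libraries of Gnat1 and Gnb1, by contrast, lay above the naive ranges of those genes.

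Among the phosphodiesterase genes the inhibitory subunit gave the widest spread. Pde6g had 2.03, 3.43, 1.38, 7.59 and 2.29 CPM in the naive libraries, 1.94, 2.54, 2.31 and 5.59 in the presymptomatic, 7.91, 6.45 and 12.3 in the onset and 3.12, 0.855, 2.09 and 4.04 in the peak libraries. It had the largest onset difference of the 9 members, with 8.87 ± 3.02 CPM at onset and 3.34 ± 2.49 CPM in naive libraries, a log2 fold change of 1.42 ± 0.48. The onset libraries stood at 3.46, 2.82 and 5.36 times the naive median, but naive replicate 4 overlapped them. Without onset replicate 3, the log2 fold change of Pde6g was 1.11 ± 0.54. Its interval held few reads, from 6 in peak replicate 2 to 266 in onset replicate 3, so its single values carry large counting error.

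Pde6b had 15.0, 13.7, 6.05, 15.7 and 17.2 CPM in the naive libraries, 10.1, 8.99, 7.69 and 12.1 in the presymptomatic, 20.2, 14.9 and 32.8 in the onset and 17.7, 11.1, 10.6 and 19.0 in the peak libraries. All onset libraries lay above all presymptomatic libraries, and 2 of the 3 lay above all naive ones. Pde6b averaged 22.7 ± 9.21 CPM at onset and 13.5 ± 4.36 CPM in naive libraries, a log2 fold change of 0.75 ± 0.32, or 0.38 ± 0.35 without onset replicate 3. Pde6a had 17.8, 10.6, 11.1, 19.7 and 22.4 CPM in the naive libraries, 18.4, 16.1, 10.7 and 17.7 in the presymptomatic, 15.2, 20.3 and 37.3 in the onset and 21.8, 10.8, 15.3 and 18.3 in the peak libraries. Its onset and naive libraries overlapped, and 1 onset library, replicate 3, lay above the naive range. Pde6a averaged 24.3 ± 11.6 CPM at onset and 16.3 ± 5.27 CPM in naive libraries, a log2 fold change of 0.58 ± 0.31, or 0.13 ± 0.33 without that library.

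For the channel genes the stages overlapped in every comparison with naive libraries. Cngb1 had 41.9, 44.1, 23.8, 32.8 and 64.0 CPM in the naive libraries, 45.3, 33.4, 33.8 and 26.1 in the presymptomatic, 43.8, 57.9 and 47.1 in the onset and 36.0, 34.4, 26.8 and 44.8 in the peak libraries. The highest value of Cngb1 was in a naive library, replicate 5. Cngb1 averaged 49.6 ± 7.35 CPM at onset and 41.3 ± 15.0 CPM in naive libraries, a log2 fold change of 0.26 ± 0.26. Cnga1 had 12.4, 9.09, 17.7, 14.8 and 10.0 CPM in the naive libraries, 9.36, 13.6, 9.39 and 16.3 in the presymptomatic, 14.1, 8.98 and 18.6 in the onset and 22.3, 14.3, 20.9 and 9.33 in the peak libraries. Its highest values were in peak replicates 1 and 3, and peak replicate 4 was among the lowest. Cnga1 averaged 13.9 ± 4.80 CPM at onset and 12.8 ± 3.52 CPM in naive libraries, a log2 fold change of 0.12 ± 0.32, or -0.17 ± 0.37 without onset replicate 3. The onset differences of both channel genes were close to or below their standard errors.

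The arrestin gene was led by 1 library. Sag had 22.2, 29.6, 18.6, 35.8 and 21.0 CPM in the naive libraries, 18.5, 15.9, 14.2 and 34.2 in the presymptomatic, 31.0, 35.1 and 72.2 in the onset and 25.9, 10.7, 20.7 and 34.2 in the peak libraries. Onset replicate 3 stood apart, at 2.02 times the next highest library, and the other onset libraries lay inside the naive range. Sag averaged 46.1 ± 22.7 CPM at onset and 25.5 ± 7.12 CPM in naive libraries, a log2 fold change of 0.86 ± 0.33, or 0.38 ± 0.35 without that library.

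**Figure D2:**
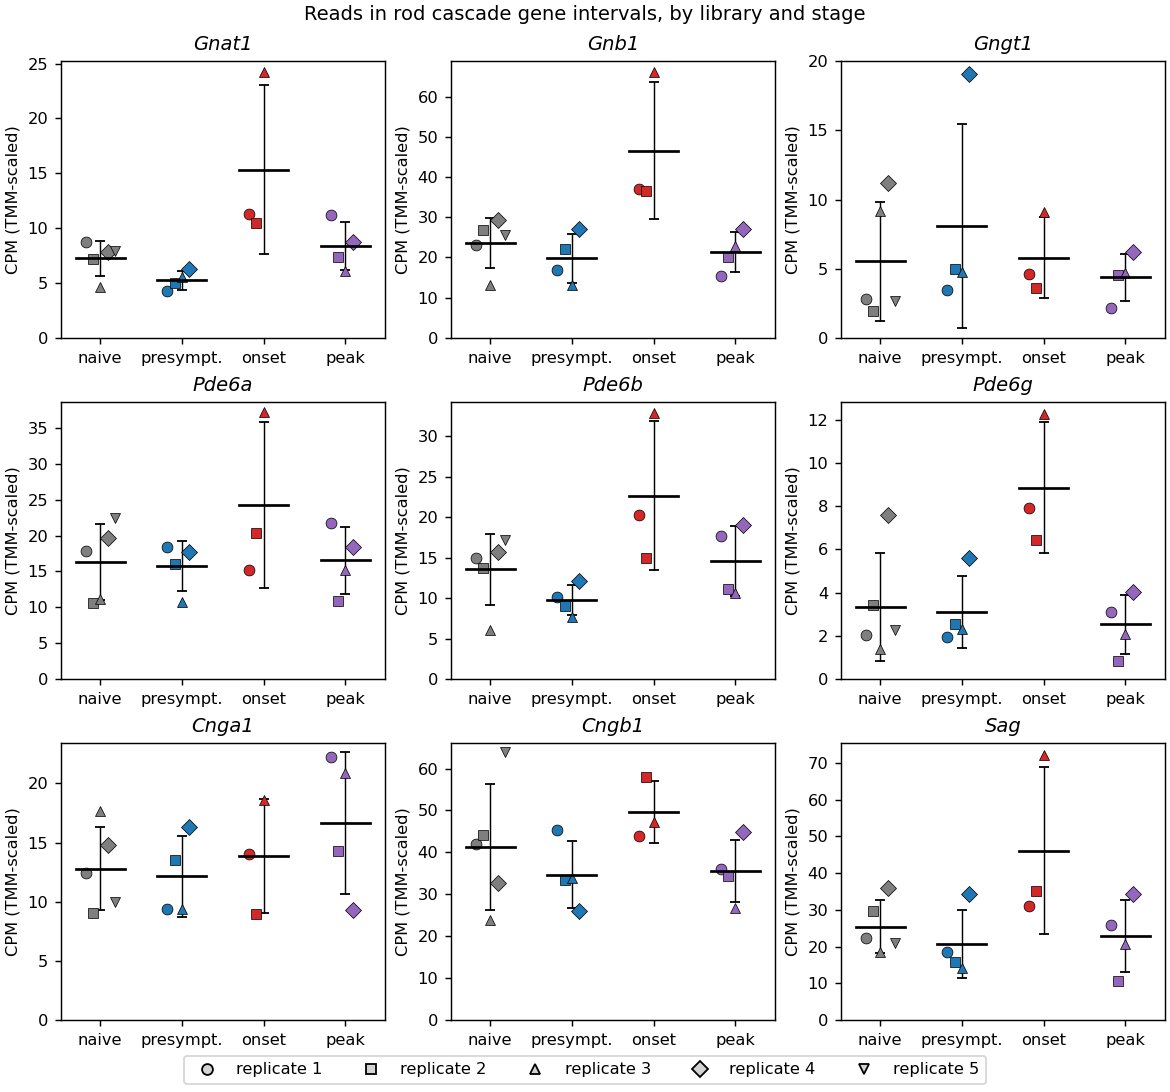
TMM-scaled CPM of the 9 rod cascade genes in every library, by stage (naive 5, presymptomatic 4, onset 3 and peak 4 libraries), with the stage mean and SD. For Gnat1 and Gnb1 all 3 onset libraries lie above all naive libraries, and onset replicate 3 is the highest library for 6 of the 9 genes.

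Over the 9 members, onset values were above naive ones in 9 of 9, and the median log2 fold change was 0.75 against -0.01 over all intervals tested, 48.6% of which were higher at onset. In 2 of 9, Gnat1 and Gnb1, every onset library lay above every naive library, where 1.60% of all intervals did so. Since the members were proposed with this comparison known, nothing is read from these counts. With counts scaled by their totals in place of TMM, the median was 1.51 for the members and 0.60 over all intervals, 88.0% of which were then higher. These totals include mitochondrial reads, which were 8.36% of interval reads in onset replicate 3 and 34.4% to 64.7% in the other libraries. At an adjusted p under 0.05 by edgeR, 0.00% of intervals were called between onset and naive libraries, with 1480 at an unadjusted p under 0.05 and 0 called by DESeq2. Without onset replicate 3, 7 of 9 members were higher, where 44.9% of all intervals were. Their median log2 fold change was then 0.38, against -0.07 over all intervals. The same 2 members did not overlap without it, but fewer libraries separate more easily. The share of all intervals that did so was not computed for that set, and the 1.60% does not apply to it. Onset replicate 3 was the highest library for 6 of the 9: Gnat1, Gnb1, Pde6a, Pde6b, Pde6g and Sag. The part of its lower mitochondrial share in these values was not tested.

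Onset libraries were also set against the presymptomatic and peak ones. Between onset and presymptomatic libraries, 8 of 9 members were higher, where 53.3% of all intervals were, and their median log2 fold change was 1.18 against 0.03 over all intervals. Every onset library lay above every presymptomatic one for Gnat1 (1.56 ± 0.34), Gnb1 (1.25 ± 0.30), Pde6b (1.23 ± 0.34) and Pde6g (1.59 ± 0.52), 4 of 9 where 5.38% of all intervals did so. None had every onset library below every presymptomatic one, as 4.69% of intervals did. Without onset replicate 3, 7 of 9 members were higher at onset than at the presymptomatic stage, where 49.1% of all intervals were. The members' median was then 0.70, against -0.01 over all intervals. The same 4 did not overlap, but the share of all intervals that did so without that library was not computed. Between peak and onset libraries, Cnga1 was the 1 member of 9 that was higher, where 52.1% of all intervals were, and the median log2 fold change was -0.64 against 0.03 over all intervals. Every peak library lay below every onset one for Gnb1 (-1.14 ± 0.30) and Pde6g (-1.86 ± 0.54), 2 of 9 where 4.18% of all intervals did so, and none lay above in every library, as 2.56% of intervals did. Without onset replicate 3, Gngt1 and Cnga1 were the 2 of 9 that were higher at peak than at onset, where 53.6% of all intervals were. The members' median was -0.40, against 0.05 over all intervals. Gnat1 was then at -0.40 ± 0.36, Pde6b at -0.29 ± 0.37, Gnb1 at -0.81 ± 0.32 and Pde6g at -1.57 ± 0.60. These comparisons share the onset libraries with each other and with the comparison to naive mice.

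The comparisons without onset libraries were tested, and no member passed. Between presymptomatic and naive libraries, each of the 9 members had an edgeR adjusted p of 1.00, and none had an unadjusted p under 0.05. The same test called 0.00% of all intervals, with 348 at an unadjusted p under 0.05 and 0 called by DESeq2. Pde6b had a log2 fold change of -0.49 ± 0.30 and Gnat1 of -0.47 ± 0.31, and Gngt1 was the 1 member of 9 above 0, at 0.49 ± 0.51, where 41.6% of all intervals were above 0. The median of the members was -0.25, against -0.06 over all intervals. No member had every presymptomatic library below every naive library, as 0.482% of intervals did. With counts scaled by their totals, the log2 fold change of all intervals was 0.26 at its median, 7 of 9 members were above 0 and 3 of 9 were above that median.

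At peak, members were again spread around naive values. All 9 had an edgeR adjusted p of 1.00 between peak and naive libraries, and 4 of 9 were above 0, where 47.1% of all intervals were. Cnga1 was the highest, at a log2 fold change of 0.40 ± 0.30, and Pde6g the lowest, at -0.45 ± 0.50. Over all intervals 0.00% were called, with 1080 at an unadjusted p under 0.05 and 1 called by DESeq2, which was not a member. Between peak and presymptomatic libraries 7 of 9 members were higher, where 53.3% of all intervals were. Gnat1 had the largest positive difference, 0.68 ± 0.33, with an adjusted p of 0.999 by edgeR and an unadjusted p of 0.0503. Gngt1 had the largest negative one, -0.84 ± 0.56, and the test called 0.00% of all intervals, with 1019 at an unadjusted p under 0.05 and 0 called by DESeq2.

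**Figure D3:**
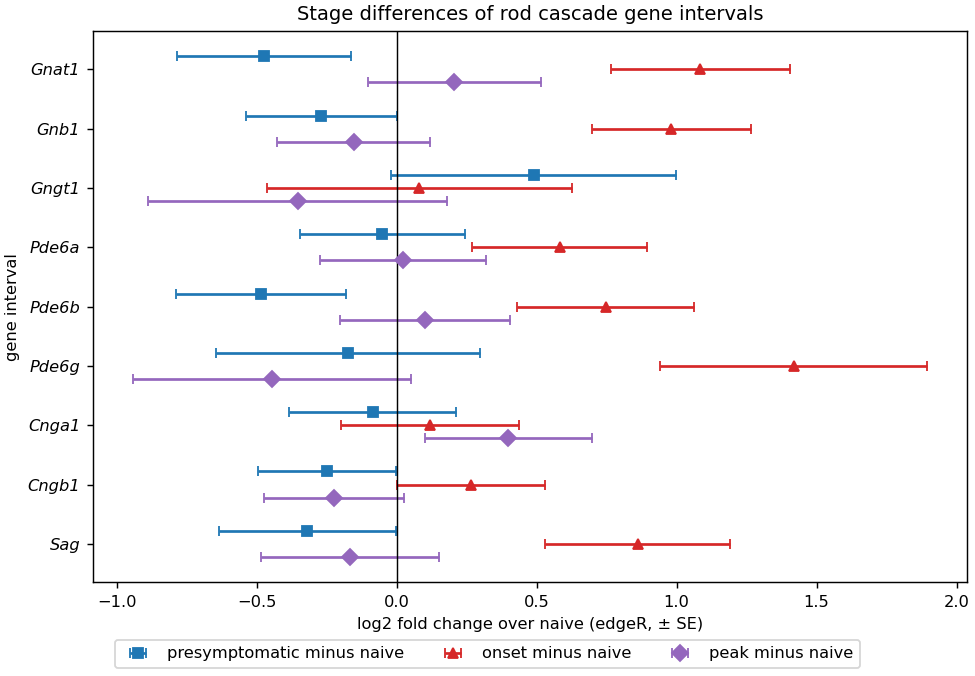
Log2 fold change of each rod cascade gene against naive libraries at the presymptomatic stage, onset and peak, with its SE from edgeR. The onset values of Pde6g, Gnat1 and Gnb1 are the highest, at 1.42, 1.09 and 0.98, and the presymptomatic and peak values lie about 0.

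Across the 16 libraries 6 members tended to vary together, and the others did so less. For the 15 pairs among Gnat1, Gnb1, Pde6a, Pde6b, Pde6g and Sag, Pearson's r of log2 CPM was 0.62 to 0.91, with Spearman's rho of 0.36 to 0.91. The highest were Pde6g with Sag and Gnat1 with Pde6b, each with an r of 0.91. For the 21 pairs that hold Gngt1, Cnga1 or Cngb1, r was -0.61 to 0.60, with rho of -0.56 to 0.56. Without the 2 libraries farthest from the median, r was 0.24 to 0.90 for the 15 pairs and -0.60 to 0.64 for the 21. The ranges of the 2 sets of pairs thus overlapped in rho and without those libraries. The channel genes Cnga1 and Cngb1 gave the lowest r of all 36 pairs, -0.61 with a rho of -0.56. It was -0.60 without the 2 libraries farthest from the median, and -0.74 with stage means removed. The median r over all pairs was 0.46, and 0.41 with stage means removed, so libraries of 1 stage differed in the same direction for many members. These are descriptions over libraries that share depth and composition, and the 6 genes were grouped after their values were seen.

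**Figure D4:**
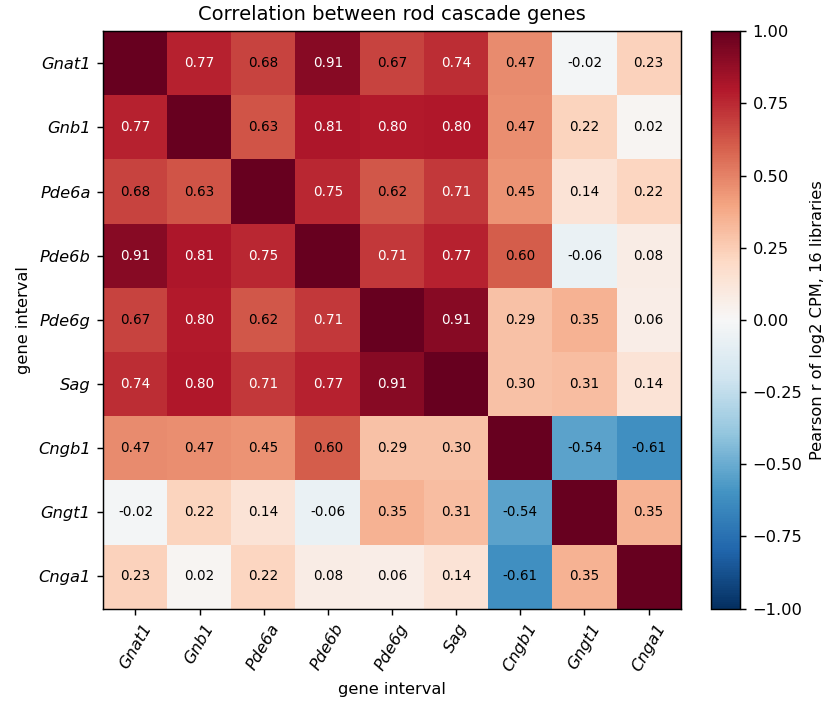
Pearson's r between the log2 CPM of each pair of rod cascade genes over 16 libraries. The 15 pairs among Gnat1, Gnb1, Pde6a, Pde6b, Pde6g and Sag have r of 0.62 to 0.91, and Cnga1 with Cngb1 has the lowest, -0.61.

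Members also differed in how they went with a background measure, the share of nuclear reads in olfactory and vomeronasal receptor intervals, which was 0.192% to 0.562% per library. Over the 16 libraries, Cngb1 had an r of -0.79 with the log2 of that share, Pde6b of -0.69 and Gnat1 of -0.60. Gngt1 and Cnga1 had positive values, 0.48 and 0.40. Naive replicate 3, which had the highest share, had the lowest value of Gnb1, Pde6b and Cngb1. The part of this background in the members' values was not tested.

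The intervals whose log2 CPM went most closely with the members' mean were taken from all intervals tested. Prph2, which encodes a structural protein of photoreceptor outer segments, had an r of 0.95 over 16 libraries. Fscn2, which encodes a photoreceptor actin-bundling protein, had an r of 0.94. Rd3, which encodes an inhibitor of the retinal guanylate cyclases, had an r of 0.93. Fam57b and Gm40387 followed, each with an r of 0.92, then Klhl18 and Scarb1, each with 0.91. Over marker lists the median r with the members was 0.81 for 15 rod markers outside the cascade, -0.24 for 18 ganglion cell markers and -0.00 over all intervals.

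Cones use a parallel cascade built from their own genes, which allowed each member to be set against its counterpart within a library, where scaling cancels. On the scale of log2 density ratios, Gnat1 exceeded Gnat2 in 16 of 16 libraries, with a median of 2.55 and a range of 1.39 to 5.03. The highest ratio was in peak replicate 2, and the lowest count of Gnat2 in a library was 6 reads. Pde6g exceeded Pde6h in 14 of 16, with a median of 1.39. Pde6a lay below Pde6c, the single catalytic subunit of cones, in all but 2 libraries, with a median of -0.62. Pde6b exceeded Pde6c in only 5 of 16, with a median of -0.28, and Cnga1 exceeded Cnga3 in 6 of 16, with a median of -0.29. The ratios of Cngb1 to Cngb3, Gngt1 to Gngt2, Gnb1 to Gnb3 and Sag to Arr3 had medians of 0.41 to 0.58 and went either way among libraries.

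No difference between stages in these ratios passed adjustment over 18 tests. The smallest p was for Gnb1 to Gnb3, which averaged -0.84 ± 0.79 in presymptomatic libraries and 1.18 ± 1.00 in naive libraries (SD, n = 4 and 5). The difference of -2.02 had a 2-sided exact permutation p of 0.0159, adjusted 0.286. The highest presymptomatic ratio, 0.18, lay below the lowest naive one, 0.44. With 4 against 5 libraries this 2-sided test allows no smaller p. A single pair at that p therefore could not pass adjustment over 18 tests. Gnb3, the cone beta subunit, held only 2 to 55 reads per library. At onset the ratio of Sag to Arr3, the rod to the cone arrestin, averaged 1.92 ± 0.52, against 0.64 ± 1.28 in naive libraries. The largest onset difference of the 9 pairs, -1.60, went the other way. It was that of Gngt1 to Gngt2, which averaged -0.53 ± 0.52 at onset and 1.07 ± 1.81 in naive libraries. Gngt2 held only 0 to 82 reads per library. The onset ratio was above the naive one in 7 of 9 pairs, and in 6 of 9 without onset replicate 3.

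Genes that end the light response and restore cyclic GMP were taken as a list of 11, all tested. At onset 10 of 11 were above naive values, where 48.6% of all intervals were, at a median log2 fold change of 0.77. Their summed level was 288 CPM in onset replicate 3, while the onset median of 215 CPM lay inside the naive range of 173 to 227 CPM. Rcvrn, the calcium sensor recoverin, had 1.29 ± 0.50, Guca1b, a guanylate cyclase activator, 1.18 ± 0.47, and Gucy2e, a retinal guanylate cyclase, 0.91 ± 0.30. The other retinal cyclase, Gucy2f, was the 1 below naive values, at -0.68 ± 0.33. For Guca1b, Gucy2e and Pdc, the transducin-binding phosducin, every onset library lay above every naive library, 3 of 11 where 1.60% of all intervals did so. At the presymptomatic stage 3 of 11 and at peak 5 of 11 were above naive values, with medians of -0.05 and -0.03. Over all intervals 41.6% and 47.1% were above naive values at these stages, with medians of -0.06 and -0.03.

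The cone counterparts and other members of the same gene families were counted in the same way, beside the 48.6% of all intervals higher at onset. Of the 8 cone counterparts, 5 were higher at onset, and their median log2 fold change was 0.48. Gngt2, the cone gamma subunit, was the highest of them at 1.62 ± 0.76, on only 0 to 82 reads per library. Of 7 other G protein subunits, 6 were tested and 5 were higher, with a median of 0.22. Of 7 phosphodiesterase, channel and arrestin genes outside the rod and cone cascades, 6 were higher, with a median of 0.10, and Cnga2, an olfactory channel subunit, was the lowest at -1.33 ± 0.40. At the presymptomatic stage Gnb3 had 1.64 ± 0.60, and at peak Pde6c had 0.51 ± 0.24, and neither passed (edgeR adjusted p of 1.00 each).

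Markers of the cell types that a sort could hold were read beside the onset values. Of all intervals, 48.6% were higher at onset than in naive libraries with TMM. Of 15 tested rod markers outside the cascade, 15 were higher at onset, their median log2 fold change was 0.98, and for 7 of them every onset library lay above every naive library, as 1.60% of all intervals did. Their summed level was 476 to 675 CPM over onset libraries and 333 to 398 CPM over naive libraries. The 675 CPM was in onset replicate 3, and the median of the onset libraries was 480 CPM. The ganglion cell markers summed to 223 to 313 CPM at onset and 237 to 363 CPM in naive libraries, and 7 of 18 were higher, with a median of -0.10. Cone markers were higher in 6 of 10, bipolar cell markers in 8 of 10, amacrine and horizontal cell markers in 8 of 11, Müller glia and astrocyte markers in 4 of 11, microglia and macrophage markers in 2 of 7, and pigment epithelium markers in 2 of 8. Their medians lay between -0.24 and 0.26 with TMM. With counts scaled by their totals, mitochondrial reads included, 88.0% of all intervals were higher at onset. Ganglion cell markers were then higher in 15 of 18, at a median of 0.39 below the 0.60 of all intervals. Rod markers outside the cascade had a median of 1.70. The part of the share of rod nuclei in the members' onset values was not tested.

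**Figure D5:**
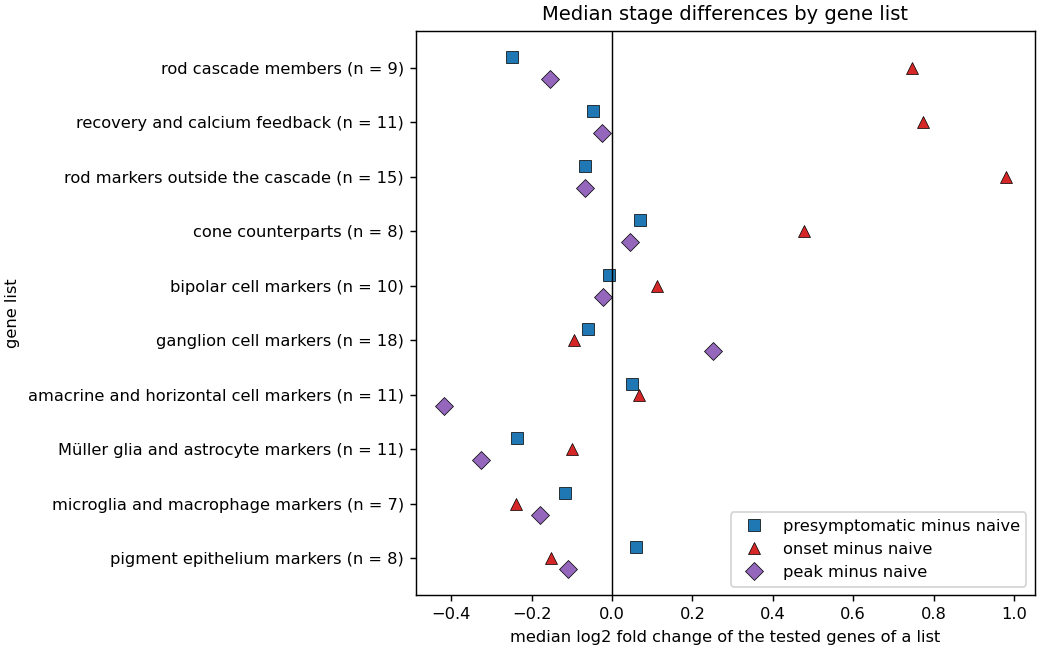
Median log2 fold change against naive libraries at the presymptomatic stage, onset and peak, for the rod cascade genes and other gene lists (TMM scaling). At onset the rod cascade genes (median 0.75), recovery and calcium feedback genes (0.77) and other rod markers (0.98) lie above the remaining lists. Ganglion cell markers lie at -0.10 at onset. With total-count scaling, which is not drawn, they were at 0.39 and all intervals at 0.60.

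The genes next to the members on the chromosome were read beside them. Of 18 neighbours, 16 were tested. At onset 48.6% of all intervals were higher than in naive libraries, at a median log2 fold change of -0.01. Of the 16 neighbours 11 were higher, at a median of 0.23, from -0.73 to 1.21. The highest was Slc38a3, an amino acid transporter gene beside Gnat1. Across libraries a neighbour's log2 CPM had a median r of 0.31 with its member, from -0.19 to 0.71.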

How the data were processed

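ATAC-seq was made on sorted mouse retinal ganglion cells, with 10 PCR cycles per the labels' protocols. Per the submitters' processing notes, cutadapt, HISAT2 and HTSeq were used; versions, the genome build, the annotation and the handling of duplicate or multiply aligned reads are not given in the sources used here. As deposited, counts are whole reads per gene interval. The RPKM values deposited by the authors divide those counts by a library total and an interval length, and gave the counted length: the gene's span less 1000 bases at each end. Positions were equal to GRCm38.p6 starts for 70.4% of shared gene names. All columns were matched to samples by label (0 left out).

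Counts were fitted with edgeR 4.0.16 (limma 3.58.1, R 4.3.3): TMM, filterByExpr by stage (minimum count 10), 1 quasi-likelihood fit over all 16 libraries with a mean per stage, and Benjamini-Hochberg adjustment over 29902 intervals. The test was checked on simulated counts. SEs come from the F statistic. CPM are TMM-scaled; log2 CPM adds a prior count of 2. Density ratios used a 2-sided exact permutation test over libraries. Correlations have no p-values. Named genes were all members, cone counterparts, the 4 of each related list with the smallest p or those a count needs, chromosomal neighbours, and the 8 intervals most like the members; 1 of these 8 is not reported here. Members and lists were chosen with earlier results of these data known. Alternatives were RLE or total-count scaling, nuclear intervals only, other filters, DESeq2 1.42.0, fits of 2 stages, the replicate block, the receptor-read share as covariate, and left-out libraries. Percentiles among intervals of similar length, and medians without Gnb1, were added after seeing the data. No libraries of 1 stage agreed within sampling noise. Depth was 1.58 to 15.1 M nuclear reads per library.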

Additional observations from a re-analysis of the deposited data

Results flagged for a closer look

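In presymptomatic replicate 4 Gngt1 stood at 19.1 CPM, while the other presymptomatic libraries lay between 3.46 and 5.00 CPM. Pde6g stood apart in the same library, at 5.59 CPM against 1.94 to 2.54 CPM in the others. In both cases the gap to the nearest library of the stage was larger than Dixon's 95% limit for 4 samples. Chance gives such a gap in about 1 in 20 groups, and 27 groups of 4 or 5 libraries were looked at. That library held 2.23 M nuclear reads (M, 10 to the power 6), against 1.58 to 15.1 M over all 16.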

How the results depend on the processing

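At onset 9 of 9 members were above naive values under each other scaling, filter, test or covariate tried. Without naive replicate 1, 2 or 5 this held for 8 of 9, with Gngt1 below, and without onset replicate 3 for 7 of 9, with Gngt1 and Cnga1 below. Their median onset difference was 0.38 without presymptomatic replicate 4 and onset replicate 3 (labelled 16 and 17, out of stage order), and 0.38 to 0.98 when 1 library at a time was left out. Between onset and presymptomatic libraries that range was 0.70 to 1.35. Scaling by total counts gave medians of 1.51 (onset against naive), 1.66 (onset against presymptomatic) and -1.31 (peak against onset), where the median of all intervals was 0.60, 0.34 and -0.53.

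Small differences changed sign under some settings. With total-count scaling, the presymptomatic differences from naive were 0.061 for Gnb1, 0.31 for Pde6a, 0.22 for Pde6g, 0.31 for Cnga1, 0.024 for Cngb1 and 0.0082 for Sag. Those of peak from presymptomatic were -0.21 for Gnb1, -0.12 for Pde6a, -0.22 for Cngb1 and -0.041 for Sag. Without libraries 16 and 17, Gngt1 was -0.31 between presymptomatic and naive libraries, and Pde6g was 0.071 and Cngb1 -0.12 between peak and presymptomatic ones. With the receptor share as a covariate that Cngb1 value was -0.10. Among presymptomatic ratio differences, Gngt1 to Gngt2 was 0.013 with a pseudocount of 2 reads, and Cngb1 to Cngb3 was 0.12 without libraries 16 and 17. The cause of these shifts was not tested.

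With 1 library left out, presymptomatic differences from naive were -0.24 to 0.063 for Cnga1, -0.31 to 0.90 for Gngt1, -0.18 to 0.10 for Pde6a and -0.54 to 0.34 for Pde6g. Peak differences from naive were -0.59 to 0.061 for Gngt1, -0.15 to 0.18 for Pde6a, -0.085 to 0.23 for Pde6b, -0.71 to 0.072 for Pde6g and -0.41 to 0.075 for Sag. Peak differences from presymptomatic were -0.10 to 0.18 for Cngb1, -0.039 to 0.28 for Gnb1, -0.11 to 0.24 for Pde6a, -0.54 to 0.088 for Pde6g and -0.095 to 0.47 for Sag. Presymptomatic ratio differences were -0.28 to 0.23 for Cnga1/Cnga3, -0.28 to 0.14 for Cngb1/Cngb3, -0.85 to 0.34 for Gngt1/Gngt2, -0.41 to 0.040 for Pde6a/Pde6c and -0.54 to 0.011 for Pde6g/Pde6h. Peak ratio differences were -0.32 to 0.17 for Cngb1/Cngb3, -1.04 to 0.55 for Gngt1/Gngt2 and -0.66 to 0.031 for Pde6b/Pde6c.

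Libraries with the same replicate number did not deviate together as a rule (median r of -0.01 over 21 pairs, from -0.41 to 0.43). A median over so few pairs cannot settle whether the numbers pair samples. With the replicate block, Pde6a was 0.13 between presymptomatic and naive libraries and Cngb1 was 0.0080 between peak and naive ones, and 1 interval was called between onset and presymptomatic libraries. DESeq2 called 1 interval between peak and naive, 1 between onset and presymptomatic and 5 between peak and onset libraries, none of them a member. Groups of 3 to 5 libraries limit the precision of single values. So do counts as low as 6 for Pde6g, 2 for Gnb3 and 0 for Gngt2.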
